A study of Homo sapiens with 24 samples.

Results

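The KRAB zinc-finger genes of human chromosome 19 stand in long tandem clusters, and 4 such clusters were examined in chromatin immunoprecipitation sequencing (ChIP-seq) data of the cell line hTert-HME1. The clusters were taken by position in build hg19, as every site of chromosome 19 with a start from 19.7 to 24.5 Mb (cluster 1), from 36.7 to 38.4 Mb (cluster 2), from 44.3 to 45 Mb (cluster 3) or from 52.3 Mb on (cluster 4). They held 278 of the 32666 sites in the authors' deposited tables, namely 255 of 30475 sites of Rbap46 against input and 23 of 2191 sites of changed H3K9ac. Within these tables, position alone chose the sites. The tables hold only sites within the authors' limits of false discovery rate, 0.05 for Rbap46 and 0.1 for H3K9ac. The windows were chosen with earlier results of these data known.

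hTert-HME1 is a mammary epithelial line immortalised with telomerase. Rbap46 was represented by 2 libraries and input chromatin by 2 libraries, all of untreated cells. H3K9ac, the acetylation of lysine 9 of histone H3, was represented by 3 libraries of cells with a control short hairpin RNA (shControl) and 3 libraries of cells with hairpins against HAT1 (shHAT1). The shHAT1 libraries carry the names A7, B6 and C5 and the shControl libraries the names shCon2, shCon3 and shCon5, and the labels do not say whether each is a clone, a culture or a hairpin. The deposited values are means over the libraries of a group on a log2 scale of normalised read concentration, so that neither the spread between libraries nor the depth of a library is known here.

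KRAB zinc-finger proteins bind DNA through an array of C2H2 fingers and repress through the KRAB domain, which recruits TRIM28 (KAP1). TRIM28 brings the H3K9 methyltransferase SETDB1 and HP1 proteins, and many of the targets are transposable elements. The zinc-finger gene clusters themselves are known to carry H3K9 methylation, the mark that cannot share a lysine with H3K9ac. Rbap46 (RBBP7) is a histone chaperone that binds histone H4 and forms a complex with HAT1, the acetyltransferase of newly made H4.

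The clusters differ in how many genes between their first and last listed zinc-finger gene are zinc-finger genes too. A list of 165 zinc-finger genes of the clusters was matched in full to RefSeq's gene table of GRCh38.p14, which was used for names and for the order of neighbours only. From the first to the last listed gene, lists 1 to 3 spanned 83 protein-coding genes, of which 80 had a zinc-finger symbol. These include ZNF91 and ZNF43 in cluster 1, ZNF568 in cluster 2 and ZNF224 in cluster 3. The list of cluster 4 spanned 229 protein-coding genes, of which 114 had a zinc-finger symbol. The others there included 10 LILR and 7 KIR genes, which encode receptors of immune cells, and 9 NLRP genes, whose products are related to inflammasome sensors. Most of the others, 89 genes, had symbols outside these families. Each span starts and ends with a listed zinc-finger gene. Genes of a window outside its span were not counted, so the gene content of whole windows is not known here. Sites were not joined to single genes, since positions of GRCh38 do not hold for hg19.

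Of the other facts of the series, one bears on the overlap of the tables. On chromosome 22 from 19 to 24 Mb, the median input level over 184 sites in the authors' deposited table was 7.48, compared with 5.50 at the 571 sites elsewhere on that chromosome, a ratio of 3.93. Whether the cells behind the Rbap46 and input libraries have the same karyotype as those behind the H3K9ac libraries was not tested. The overlaps below take both tables to be of the labelled line.

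The first comparison asked where Rbap46 stood above input. Rbap46 was above input at all 255 sites of the clusters in the authors' deposited table, each at a false discovery rate (FDR) under 0.05. This count has no weight of its own, since the table holds little else: of about 80831 sites that the authors tested, 37.6% passed in this direction, and sites that did not pass were not analysed here. Cluster 4 held 189 of the 255 sites, cluster 1 held 33, cluster 2 held 22 and cluster 3 held 11.

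Rbap46 sites were sparse in clusters 1 to 3, and whether this goes with gene content was not tested. Cluster 1 had 6.88 sites per Mb over its 4.8 Mb, cluster 2 had 12.9 over 1.7 Mb, and cluster 3 had 15.7 over 0.7 Mb. Cluster 4, whose listed span was of mixed gene content, had 27.8 sites per Mb over 6.79 Mb. The stretches of chromosome 19 next to the clusters were denser in most cases. There were 50.4 sites per Mb before cluster 1, 37.1 between clusters 2 and 3, and 58.6 between clusters 3 and 4. The exception was the stretch between clusters 1 and 2, at 11.1 sites per Mb, which contains the centromere and had its first site 3784 kb past the edge of cluster 1. Together the clusters had 18.2 sites per Mb, against 39.4 in the rest of the chromosome. That rest was set by position alone and its genes were not counted. It was not checked to be free of other zinc-finger genes, here or in the comparisons below. The density of sites was not tested, because sites are no replicates of a condition, and how reads that fit several zinc-finger gene copies were placed is not given in the sources used here.

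**Figure D1:**
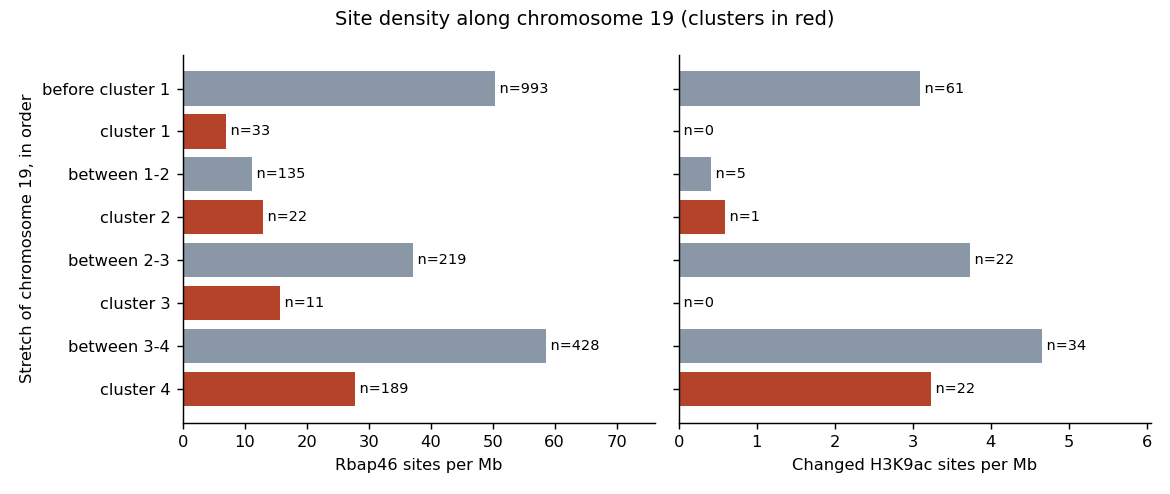
Sites per Mb in 8 consecutive stretches of chromosome 19, for all Rbap46 sites of the authors' deposited table (left) and for H3K9ac sites changed between shControl and shHAT1 cells (right); red bars are the clusters, grey bars the stretches around them, and n is the number of sites. Cluster 1 has the lowest Rbap46 density, 6.88 sites per Mb, and clusters 1 and 3 hold 0 changed H3K9ac sites.

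Neighbouring Rbap46 sites also stood farther apart in clusters 1 to 3. The median gap was 54.2 kb in cluster 1, 60.8 kb in cluster 2, 48.7 kb in cluster 3 and 18.6 kb in cluster 4, against 9.57 kb in the rest of chromosome 19. Gaps under 1 kb made up 6.77% of the 251 gaps inside clusters and 12.7% of the 1771 gaps outside them. The longest gap of the clusters was 1543 kb, in cluster 1 from 22034998 to 23577914. In cluster 4 the longest was 826 kb, from 56915894 to 57742015. Sites were thus not laid evenly over a window. In cluster 1, 21 of the 33 sites fell in the parts from 19.7 to 20 Mb and from 21 to 22 Mb, and a single site fell between 22 and 23 Mb.

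Where Rbap46 was found, its enrichment in the clusters was close to that elsewhere. The median log2 enrichment (the log2 fold of Rbap46 over input) of the 255 sites was 1.01 in the authors' deposited table, with quartiles of 0.81 and 1.2, which on the linear scale is a 2.01-fold enrichment. Over the other 1775 sites of chromosome 19 the median was 1.05, with quartiles of 0.86 and 1.29, and over the 28445 sites of the other chromosomes it was 1.05 as well. The difference of -0.04 was small beside the width of either distribution. Chromosome medians ran from 0.99 to 1.15, and 3 of the 23 chromosomes had a lower median than the clusters. A log2 enrichment of 1 or more was reached by 133 sites of the clusters, or 52.2%, while 58% of all sites in the table did so. A log2 enrichment of 1.5 or more was reached by 17 sites, or 6.67%, against 11.5% of the other sites of chromosome 19 and 9.89% of all sites in the table.

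The clusters differed among themselves in fold. Clusters 1 and 2 both had a median log2 enrichment of 1.07 and cluster 4 one of 1.00 in the authors' deposited table. Cluster 3 had the lowest median, 0.80 over its 11 sites, with values from 0.61 to 1.34. Its quartiles of 0.70 and 1.07 overlapped those of the other clusters. An FDR under 0.01 was found at 6 of its 11 sites, or 54.5%. The share was 76.9% over all sites of the clusters and 73.2% over all sites in the table. With 11 sites, nothing about cluster 3 is read from this count.

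Input levels in the clusters were also close to those of their chromosome. The median input level was 6.0 in the clusters and 5.98 over the other sites of chromosome 19, with quartiles of 5.53 and 6.43 against 5.45 and 6.48 in the authors' deposited table. Over the other chromosomes the median was 5.83, so that the clusters stood 0.17 above them on the log2 scale. Chromosome medians of input ran from 5.28 to 6.12, and 3 of the 23 chromosomes had a higher median than the clusters. By cluster the medians were 5.85, 5.90, 5.93 and 6.07, in the order of position. Along cluster 4, median input over parts of 1 Mb ran from 5.86 to 6.89, with the highest value over the 9 sites from 59 Mb on. The median Rbap46 level of those 9 sites was the highest as well, 7.86, and their median log2 enrichment was 0.97. Median Rbap46 levels were 6.98 in the clusters and 7.02 in the rest of the chromosome.

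**Figure D2:**
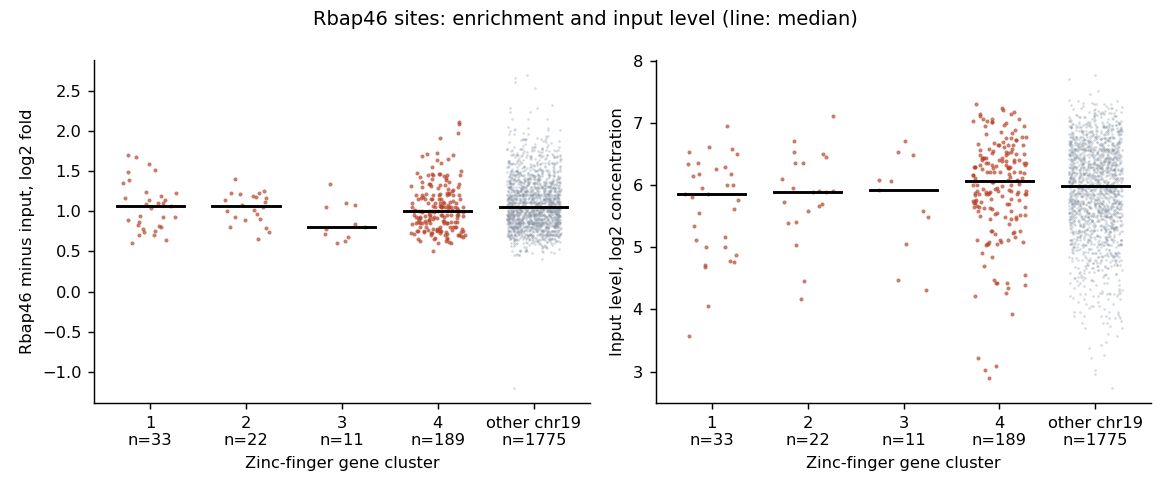
Log2 fold of Rbap46 over input (left) and log2 input concentration (right) at each Rbap46 site in the authors' deposited table, for the 4 clusters (red) and the other sites of chromosome 19 (grey); black lines are medians. The distributions overlap throughout, and cluster 3 has the lowest median fold, 0.80 over 11 sites.

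The level of reads at a site sets which folds could pass the FDR limit, so the fold was also read within quartiles of concentration of all chromosome 19 sites. In the lowest quartile the median log2 enrichment was 1.11 over 63 sites of the clusters and 1.03 over 450 other sites. In the other quartiles the clusters were lower, with 0.91 against 0.98 over 66 and 441 sites, 0.91 against 1.01 over 70 and 435 sites, and 1.11 against 1.19 over 56 and 449 sites. The sign of the difference thus turned at sites with few reads. There the smallest log2 enrichment was 0.67 in the clusters and 0.70 outside them, and weaker enrichment is not among the sites analysed. In the other quartiles the smallest values in the clusters were 0.63, 0.51 and 0.61. Why the sign turned was not tested.

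The edges of the windows are limits of position, and the nearest sites on either side of each had the following values. At the lower edge of cluster 1, the last site outside had a log2 enrichment of 1.21 and the first inside 1.70 in the authors' deposited table. The last site inside its upper edge stood at 0.82 and the next one, past the centromere, at 1.16. For cluster 2 the values were 1.12 outside and 0.74 inside at the lower edge, and 1.17 inside and 1.23 outside at the upper edge. At the lower edge of cluster 3 they were 0.62 outside and 1.34 inside. At that of cluster 4, where the sites lie 0.633 kb outside and 3.43 kb inside, they were 0.90 and 0.95.

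Single sites show the range behind the medians. In cluster 1 the site from 19754295 to 19754795 had the most positive log2 enrichment, 1.70 (FDR 1.71e-12), in the authors' deposited table, at a Rbap46 level of 7.57 and an input level of 5.86. Its neighbour from 19774259 to 19774759 had a log2 enrichment of 1.68 at a higher level, 8.27 against 6.59, and the smallest p-value of the cluster (FDR 3.52e-19). Both lie next to the lower edge of the window, at 54.3 and 74.3 kb from it. Of the 28 sites of cluster 1 more than 200 kb from an edge, the most positive log2 enrichment was 1.59. The least positive site of the cluster, from 20011508 to 20012008, had a log2 enrichment of 0.60 (FDR 0.0438) in the authors' deposited table.

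Cluster 2 had a narrower range. Its most positive sites ran from 38269982 to 38270482, with a log2 enrichment of 1.41 and an FDR of 1.62e-07, and from 37063808 to 37064308, with 1.25 and 2.27e-08, in the authors' deposited table. The former had a Rbap46 level of 7.31 over an input level of 5.90, and the latter had 7.61 over 6.36. The least positive, from 36980359 to 36980859, had a log2 enrichment of 0.65 (FDR 0.00614). None of the 22 sites reached 1.5, in contrast to 4 of the 33 sites of cluster 1, a difference that was not tested.

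In cluster 3 the most positive log2 enrichment, 1.34, belonged to the site from 44302718 to 44303218, which lies 2.72 kb inside the window and had low levels, 5.82 in Rbap46 and 4.48 in input (FDR 0.00292). The next, from 44716562 to 44717062, had levels of 6.58 and 5.48 and thus a log2 enrichment of 1.11 (FDR 0.000511) by the authors' deposited table. The site with the smallest p-value, from 44617233 to 44617733, had the highest levels of the cluster, 7.55 and 6.71, but a log2 enrichment of only 0.84 (FDR 0.000174). The least positive, from 44506787 to 44507287, stood at 0.61 (FDR 0.0177). Just outside the upper edge, 4.20 kb past it, the site from 45004200 to 45004700 had a log2 enrichment of 1.68 and an FDR of 6.67e-16, beyond every site of cluster 3 in the authors' deposited table. The last site inside that edge, from 44860535 to 44861035, had a log2 enrichment of 1.06 and an FDR of 0.0394.

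Cluster 4, with 189 of the 255 sites, held the single sites of smallest p-value and most positive log2 enrichment in the zinc-finger windows. Its median log2 enrichment, 1.00, lay between the 0.80 of cluster 3 and the 1.07 of clusters 1 and 2. The smallest p-value belonged to the site from 56166543 to 56167043, which ranked 170 of all 30475 sites, by the authors' deposited table. Its log2 enrichment was 1.98 (FDR 1.03e-24), at a Rbap46 level of 8.33 and an input level of 6.35. The most positive log2 enrichment, 2.12, came from few reads. This site, from 58828856 to 58829356, had levels of 5.01 and 2.89, the lowest input level of all 255 sites, and an FDR of 0.00148. It was one of 6 sites with an input level under 4, a limit chosen after the values were seen, of which 5 lay in cluster 4 and whose log2 enrichments ran from 1.39 to 2.12.

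The next most positive site and the least positive site of cluster 4 lay only 4.38 kb apart, with 1 site between them. The site from 55691287 to 55691787 had a Rbap46 level of 7.14 and an input level of 5.05, which by the authors' deposited table gave a log2 enrichment of 2.09 (FDR 4.45e-12). The site from 55686406 to 55686906 had nearly the same Rbap46 level, 7.15, but an input level of 6.64, and so a log2 enrichment of 0.51 (FDR 0.0449). The site between them, from 55690400 to 55690900, had a Rbap46 level of 7.06, an input level of 6.41 and a log2 enrichment of 0.65 (FDR 0.0142). The Rbap46 levels of the 3 sites were close, and the input level was lowest at the site of largest enrichment. The highest input level of the clusters, 7.30, was found from 59084399 to 59084899, with a Rbap46 level of 7.91 and a log2 enrichment of 0.61 (FDR 0.00163).

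The second comparison asked at which sites H3K9ac differed between shControl and shHAT1 cells. At 23 sites of the clusters H3K9ac fell in shHAT1 cells at an FDR under 0.1, and at 0 sites it rose. Of about 12048 sites that the authors tested, 18% were called lower and 0.141% higher, or 2174 and 17 sites, and nothing about the clusters is read from the absence of higher sites among 23. All 17 higher sites lay on other chromosomes. The authors' test is the only test of replicates available here. Its unadjusted p-values add nothing to the FDR limit, since the largest in the authors' deposited table was 0.0182. At an FDR under 0.05, 11 of the 23 were left, or 47.8%, beside 36.1% of the table's sites, or 6.56% of the sites tested, called lower at that limit.

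The changed H3K9ac sites were not spread over the 4 clusters alike. Cluster 4 held 22 of them and cluster 2 held 1, while clusters 1 and 3 held 0. In cluster 4 they had a density of 3.24 per Mb. The stretch between clusters 3 and 4 had 4.66 per Mb, that between clusters 2 and 3 had 3.73, and that before cluster 1 had 3.10. The stretch between clusters 1 and 2 was low in changed sites too, at 0.410 per Mb, below the 0.588 per Mb of cluster 2. Over the 7.2 Mb of clusters 1 to 3 the single site makes 0.139 per Mb, against 2.71 per Mb in the rest of chromosome 19. The site of cluster 2 lies only 5.89 kb inside its lower edge. Within cluster 4 the part from 55 to 56 Mb held the most Rbap46 sites, 51, but 2 changed H3K9ac sites, of which 0 overlapped an Rbap46 site. The part from 56 to 57 Mb held 30 Rbap46 sites and 5 changed H3K9ac sites, all 5 of them on an Rbap46 site. How many unchanged H3K9ac sites the clusters hold was not analysed here, so a low number of acetylated sites and a low share of changed ones cannot be told apart.

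Among sites that passed the FDR limit, the size of the H3K9ac loss was like that elsewhere. That limit leaves out small losses in every set, so the medians do not describe acetylated sites in general. The median log2 loss (the log2 fold, shControl minus shHAT1) was 0.74 over the 23 sites in the authors' deposited table, with quartiles of 0.615 and 0.89, which is a 1.67-fold difference. Over the other 122 sites of chromosome 19 the median was 0.77, with quartiles of 0.63 and 0.88, and over the 2046 sites of the other chromosomes 0.78. The largest log2 loss of the clusters was 1.12, whereas the other sites of chromosome 19 reached 3.18. At least a 2-fold loss was found at 4 of the 23 sites, or 17.4%, against 11.5% of the other sites of chromosome 19 (14 of 122) and 18.4% of the whole table. Median levels in the clusters were 9.27 in shControl and 8.51 in shHAT1 cells, against 9.42 and 8.60 over the other sites of chromosome 19.

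The lone site of cluster 2, from 36705887 to 36706387, had levels of 9.54 in shControl and 8.94 in shHAT1 cells, and a log2 loss of 0.60 (FDR 0.0374) by the authors' deposited table. In cluster 4 the largest log2 loss, 1.12, belonged to the site from 52489683 to 52490183, with the lowest levels of the 23, 8.02 and 6.90 (FDR 0.0204). The next, from 55700228 to 55700728, had levels of 8.90 and 7.85 and a log2 loss of 1.04 (FDR 0.0374). The smallest p-value was that of the site from 55849770 to 55850743, rank 32 of all 2191 sites, by the authors' deposited table. It had levels of 9.30 and 8.31 and a log2 loss of 0.99 (FDR 0.00813). This was the only one of the 23 with an FDR under 0.01, or 4.35%, beside 2.01% of all sites in the table.

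A site chosen after its values were seen shows the other end of the range. From 58694630 to 58695621 the shControl level was the highest of the 23, 10.70, and the shHAT1 level was 9.82, by the authors' deposited table, with a log2 loss of 0.88 (FDR 0.0204). A pair of sites, also chosen after their values were seen, was separated by 274 bp. The left one, from 58897734 to 58898234, had levels of 10.20 and 9.57 and a log2 loss of 0.63 (FDR 0.0645), and the right one, from 58898509 to 58899009, had 9.17 and 8.16 and a log2 loss of 1.01 (FDR 0.0241). Across the 23 sites the log2 loss was lower where the shControl level was higher, with a Spearman's rho of -0.44. This is a description of sites that share their libraries, and a site with few reads needs a larger fold to pass the FDR limit.

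**Figure D3:**
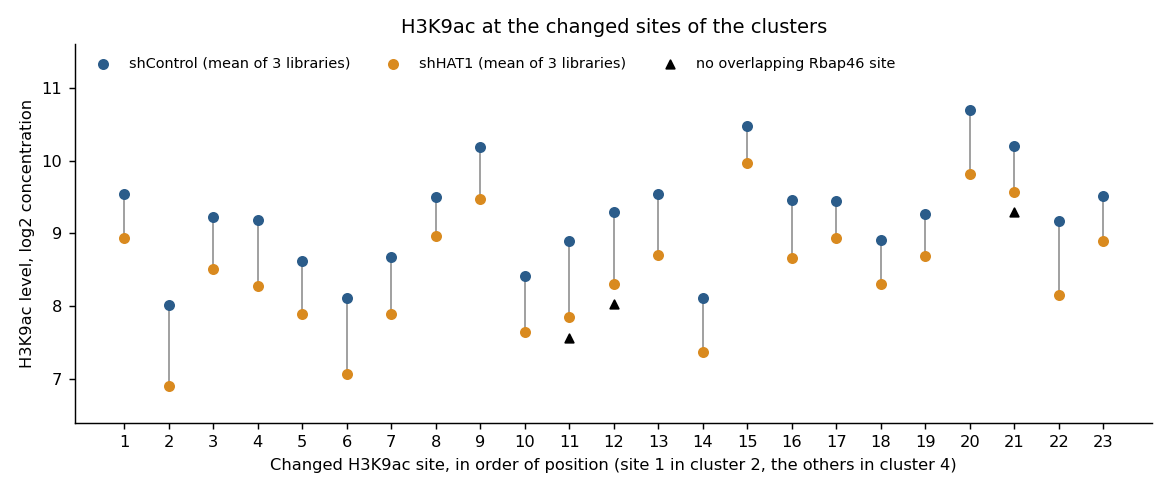
Log2 H3K9ac concentration in shControl (blue) and shHAT1 cells (orange), as authors' means of 3 libraries each, at the 23 changed sites of the clusters in order of position; triangles mark the 3 sites without an overlapping Rbap46 site. Every blue point lies above its orange point, by 0.51 to 1.12, and site 1 alone lies outside cluster 4.

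The tables were then set against each other by an overlap of at least 1 bp. Of the 255 Rbap46 sites in the clusters, 20 overlapped a changed H3K9ac site, a share of 7.84% with an exact (Clopper-Pearson) 95% interval from 4.86% to 11.9%. Over the other sites of chromosome 19 the share was 5.46% (97 of 1775 sites, 4.45% to 6.63%), and over the other chromosomes 5.39%. The interval of the clusters contains both values. It covers counting error only and takes the sites as independent, so it is no test of a difference. Within the clusters the share was 10.1% in cluster 4 (19 of 189 sites, 6.16% to 15.3%) and 1.52% in clusters 1 to 3 together (1 of 66 sites, 0.0384% to 8.16%). These intervals overlap. In cluster 1 the share was 0 of 33 sites, and in cluster 3 it was 0 of 11 sites. A limit of 3 counts allows up to 9.09% and 27.3%, and the upper ends of the exact intervals are 10.6% and 28.5%.

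From the side of H3K9ac, 20 of the 23 sites overlapped an Rbap46 site, or 87% (exact 95% interval from 66.4% to 97.2%). On the rest of chromosome 19 it was 97 of 122 sites, or 79.5%, and among all H3K9ac sites 76.1%. The 3 sites without overlap all lay in cluster 4. The site from 58897734 to 58898234, left member of the close pair, was 44 bp from the Rbap46 site that its partner overlapped. The site from 55700228 to 55700728 was 8.44 kb from the nearest Rbap46 site, which was the site with a log2 enrichment of 2.09 named above. For the site of the smallest H3K9ac p-value, from 55849770 to 55850743, the distance was 14.2 kb. In the 20 pairs the centres were a median of 167 bp apart, with a range from 7 to 502.5 bp, and each H3K9ac site met a single Rbap46 site.

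Rbap46 sites of the clusters that overlapped a changed H3K9ac site had higher read levels but a similar enrichment. The 20 overlapping Rbap46 sites had a median log2 enrichment of 0.99 in the authors' deposited table, and the 235 others one of 1.02. Their Rbap46 level was higher, with a median of 7.40 against 6.96, and so was their input level, 6.39 against 5.95. On the rest of chromosome 19, the 97 overlapping sites had a median log2 enrichment of 1.15 and the 1678 others one of 1.04, while Rbap46 levels were 7.78 and 6.97 and input levels 6.63 and 5.94. Over the quartiles of concentration, from lowest to highest, the share with overlap in the clusters was 1.59%, 7.58%, 8.57% and 14.3%. These shares rest on 1, 5, 6 and 8 sites. Outside the clusters the share was 0.889%, 1.59%, 5.52% and 13.8%, from 4, 7, 24 and 62 sites. Of the 20 overlapping sites in the clusters, 19 lay in cluster 4. The part that input level plays in these shares was not tested.

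**Figure D4:**
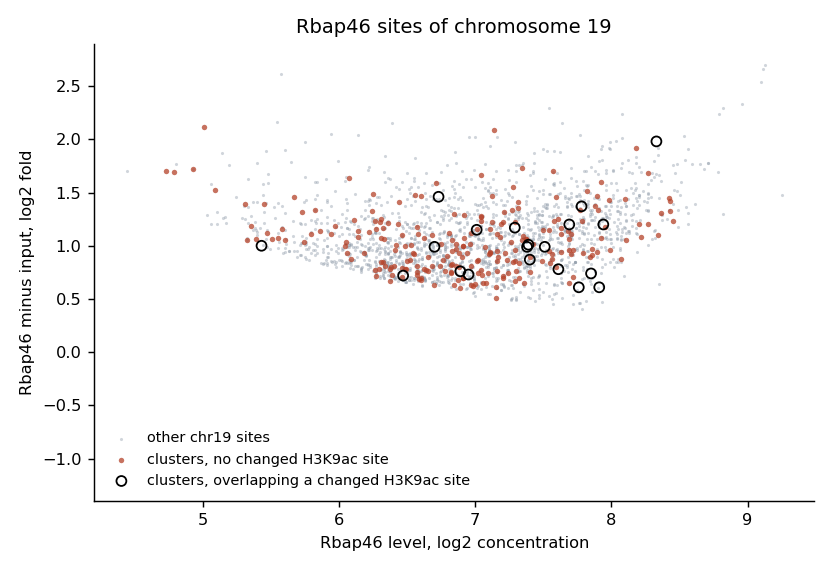
Log2 fold of Rbap46 over input against log2 Rbap46 concentration at the Rbap46 sites of chromosome 19 in the authors' deposited table, with sites outside the clusters in grey, cluster sites in red, and open circles around the 20 cluster sites that overlap a changed H3K9ac site. The circles have a median Rbap46 level of 7.40, against 6.96 for the other cluster sites, and spread over log2 folds from 0.61 to 1.98.

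Among the 20 pairs, which all passed both FDR limits, the size of the H3K9ac loss showed little relation to the Rbap46 enrichment. Spearman's rho was 0.16 and Pearson's r was -0.02, given as a description of sites that share their libraries. The limits leave out weak folds in both tables, and 20 pairs are few. Whether loss and enrichment are related at acetylated sites in general is not known here. The Rbap46 site of smallest p-value in the clusters, from 56166543 to 56167043, overlapped the H3K9ac site from 56166347 to 56166847, whose log2 loss of 0.51 was the smallest of the 23, shared with 1 other site (levels 10.48 and 9.97, FDR 0.0886). The largest H3K9ac loss, at 52489683 to 52490183, met a Rbap46 site with a log2 enrichment of 0.72 (FDR 0.0288), toward the low end of the 20. Levels of the 2 tables were related more closely, with a rho of 0.68 between Rbap46 and shControl H3K9ac levels and of 0.56 between input and shControl H3K9ac levels over the same 20 pairs. The 2 tables are separate comparisons, each with its own scaling.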

How the data were processed

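The libraries and groups are those given above. Of 24 libraries in 9 groups, 10 libraries in 4 groups lie behind the 2 tables, and the other 14, of HAT1, H4K5ac and H4K12ac, were not used here. Per the submitters' processing notes, cutadapt 1.8.1, Bowtie2, SAMtools 1.2, Picard 1.92, MACS2 2.1.0, R 3.3.1, DiffBind and DESeq2 were named, with build hg19; the notes of the H3K9ac libraries give no versions and do not name DESeq2. Their roles and settings, the scaling between libraries and the treatment of reads with several positions are not given in the sources used here. Per the file headers, the authors' concentrations and folds are log2 values, group means with no value per library, and the p-value and FDR are those of the authors' test. Within 0.01, each fold was the first group's level minus the second's. The number of sites tested was worked out from the rank relation of p-value and FDR, as 80831 to 80837 and 12048 to 12049.

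Sites were taken by start position, and overlap was counted from 1 bp with Python 3.11, numpy 2.4.6, pandas 2.3.3 and scipy 1.17.1, on code tested on simulated data. No test over sites was made, since sites are not replicates. The authors' test measures the spread between libraries, which the labels do not tie to separate cultures. In each cluster, the 2 sites of most positive fold, the 1 of least positive fold and the 1 of smallest p-value were named, with the sites of highest and lowest input; of H3K9ac, the 2 of largest fold in each cluster and the 1 of smallest p-value. The site at the edge of cluster 3 is named as just outside the window. The clusters, gene lists and alternatives were chosen with earlier results of these data known.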

Additional observations from a re-analysis of the deposited data

How the results depend on the processing

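Of 35 alternatives planned at the outset, 24 left a share within the exact interval of that same share, a difference of medians within the interval of the clusters' median, or a count within 1.5 times, and 9 more were added after the data were seen. The difference in median Rbap46 log2 fold, -0.04, stayed between -0.07 and 0 in all of its alternatives. The input difference of 0.02 turned to -0.045 against chromosome 19 sites after the first cluster and to -0.09 with clusters 1 to 3 only, and was 0.17 against other chromosomes, so its sign carries no weight. The share of Rbap46 sites with a changed H3K9ac site, 7.84%, was 4.71% with 50% of the H3K9ac site covered, 3.53% with H3K9ac sites at FDR under 0.05, and 1.52% in clusters 1 to 3. On the rest of chromosome 19, 5.46% became 7.16% within 1 kb, 4.06% with 50% covered and 2.03% at FDR under 0.05. Each was below the clusters' value under the same setting (9.41%, 4.71% and 3.53%). Restricting Rbap46 to an enrichment of at least 1 narrowed the gap, to 6.77% in the clusters and 6.36% outside them. The 1.52% of clusters 1 to 3, from 1 of 66 sites, was below the 5.46%. The 255 Rbap46 sites fell to 133 at a log2 fold of 1 or more. The 23 H3K9ac sites fell to 11 at FDR under 0.05, to 4 at a log2 fold of 1 or more and to 1 in clusters 1 to 3. The H3K9ac fold difference of -0.03 turned to 0.08 at FDR under 0.05, where 11 sites were left. Stricter limits remove sites by construction; for the other changes the cause was not tested. No paired analysis was possible because only means of each group are given; leaving out a library and another normalization were not run for the same reason. The depth of each library is not known here, and its part in the folds at sites with few reads was not tested.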
